A study of Homo sapiens with 6 samples.

Results

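The genes described here are those whose raw read counts were at least 4 times lower in HepG2 cells after knockdown of KIF11. A gene was taken when its counts summed over the 3 sh-ctrl libraries reached at least 150 and the sum over the 3 sh-KIF11 libraries was at most 0.25 of that sum. Of 20030 genes counted, 10683 had at least 150 summed sh-ctrl counts. Of these, 29 met the ratio, which is 0.271%. CA9, FABP1 and TF were among the 29 and were left out by name, as was NDUFA4L2, whose sh-ctrl sum of 132 was too low for it to qualify. This left 26 genes. Because the genes were chosen by their counts in these 6 libraries, their decrease is a description and carries no test. In the opposite direction, 52 genes (0.487%) had a ratio of at least 4.

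HepG2 is an established human hepatoma line that makes many plasma proteins of the liver. It was transduced by lentivirus with a short hairpin RNA against KIF11 (sh-KIF11) or with a control hairpin (sh-ctrl), and poly(A) RNA of 3 libraries per group was sequenced with a stranded kit. By the study's general lentivirus methods, infected cells were selected with puromycin. No other treatment is named for these libraries, and 1 hairpin stands for the knockdown. Total counts ranged from 18167773 to 19583282 per library, and KIF11 itself stood at 1976, 2088 and 2039 counts with the control hairpin against 1448, 1478 and 1240 with its own, 0.594 of the control after scaling. Where counts are given below, the 3 sh-ctrl libraries come first and the 3 sh-KIF11 libraries second, each in the order of their numbers. The labelled cell type was checked by its defining genes: ALB and AFP were abundant in every library, with at least 55445 and 22974 counts. Both were lower after knockdown, with summed sh-KIF11 counts at 0.408 and 0.488 of the sh-ctrl sums.

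KIF11 is a kinesin motor that pushes spindle poles apart in mitosis. Hepatocytes devote much of their transcription to secreted plasma proteins, to enzymes of metabolism and to transporters, and a hepatoma line keeps part of that programme. Gastric and airway epithelia, in contrast, secrete mucins, digestive zymogens and antimicrobial proteins, some of which tumour lines also express.

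The hairpin itself was examined first, since a short RNA can also pair through its seed, bases 2 to 8, with other messages. The sequences below are the target strand and the small RNA as designed, with the seed in capitals, followed by the one seed site found in the 3' untranslated regions of the 26 genes, in LYZ, with the 7 pairing bases in capitals.
sh-KIF11 target: gcgcccattcaatagtagaat
sh-KIF11 small RNA: aTTCTACTattgaatgggcgc
LYZ site: tttaaaggAGTAGAAtaccaaat
The target lies in the coding part of the KIF11 transcript ENST00000260731.4, at bases 197 to 217. Among 10643 genes with a coding transcript it matched KIF11 alone, and it matched none of the 25 of the 26 that have one. The 7-base seed site AGTAGAA occurred in the 3' untranslated region of 1 of these 25 genes (4%), against 12.5% of the 10643. The median length of these regions was 329 bases in the 25 genes and 1090 bases in the 10643. The seed site of the opposite strand occurred in 0 of the 25 genes and in 1.79% of the 10643. Where the processed small RNA begins was not measured, so the seed is that of the design.

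The size of the decrease was then set against the level of each gene. Ratios of summed raw counts ran from 0.0367 in BPIFB2 to 0.248 in GPHA2, with a median of 0.187. CPM, which are counts scaled to library size, were also adjusted by the trimmed mean of M values (TMM), which corrects for differences in composition, and then gave a median ratio of 0.164. Since the median ratio of all 10683 genes was 1.11 in raw counts, the raw rule was the stricter of the 2 scales: on TMM-scaled CPM 39 genes passed, all 26 among them. The 26 genes together took 0.444% of all sh-ctrl counts and 0.092% of all sh-KIF11 counts. Their median log2 fold change was -2.61, against 0.00 over the 12369 genes tested.

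**Figure D1:**
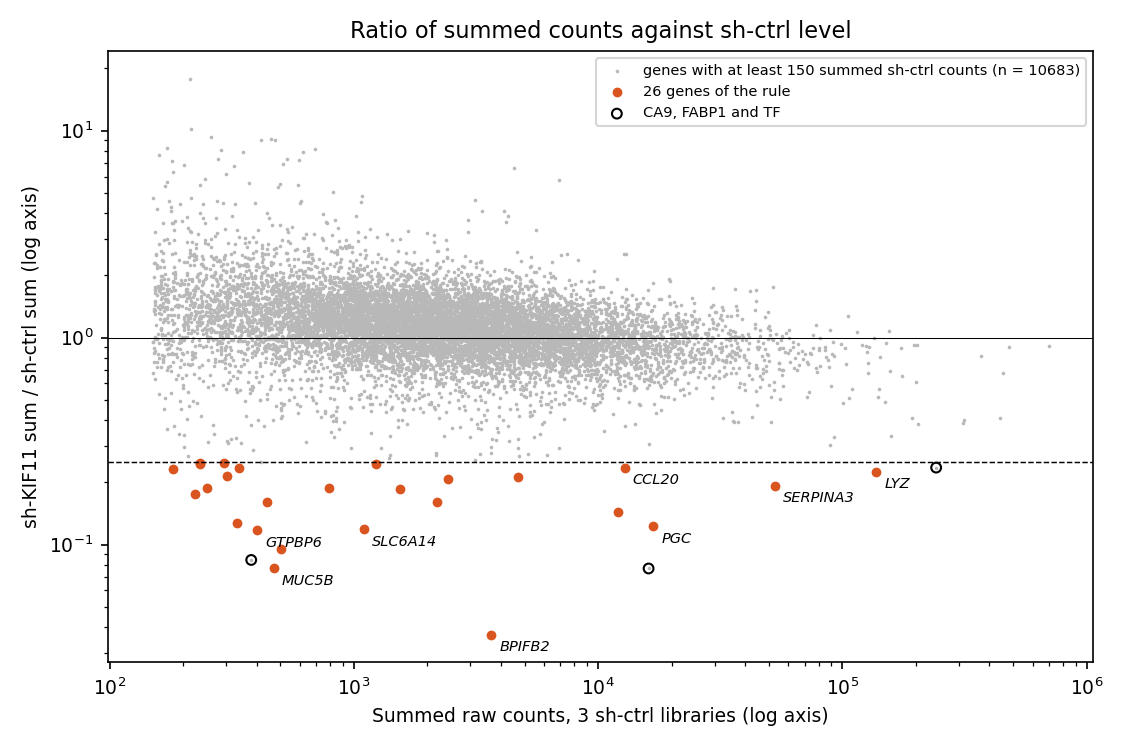
Each grey point is 1 of 10683 genes with at least 150 summed sh-ctrl counts. The horizontal axis is that sum and the vertical axis the ratio of the sh-KIF11 sum to it, both on log axes, with the dashed line at 0.25. The 26 genes (orange) run in level from RND2 with a sum of 181 to LYZ with 137582, and BPIFB2 lies lowest at 0.0367.

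The 26 genes leaned to the low end of the range of expression, though a few were abundant. By sh-ctrl CPM, 14 lay in the lowest 25% of the 10683 genes and 5 in the highest 25%, and the median gene stood at percentile 16.6. Counting precision followed from this. For 8 genes, TMEM121, ANXA13, RND2, UGT2B4, ANKRD37, FAM19A5, SLC6A12 and GPHA2, the exact 95% interval of the ratio reached above 0.25, and for the other 18 it lay wholly below. These intervals cover counting error only. The 3 genes just inside the threshold were FAM19A5, SLC6A12 and GPHA2, at 0.244, 0.247 and 0.248. The 3 just outside were SLC51B, VASN and CPN1, at 0.251, 0.256 and 0.263.

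In 25 of the 26 genes every sh-KIF11 library lay below every sh-ctrl library in CPM, a pattern that 40.4% of the 10683 genes also showed. As the rule used the same counts, nothing further was read from this. GTPBP6 was the exception. In bulk RNA, fewer cells expressing a gene and less RNA per cell cannot be told apart.

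**Figure D2:**
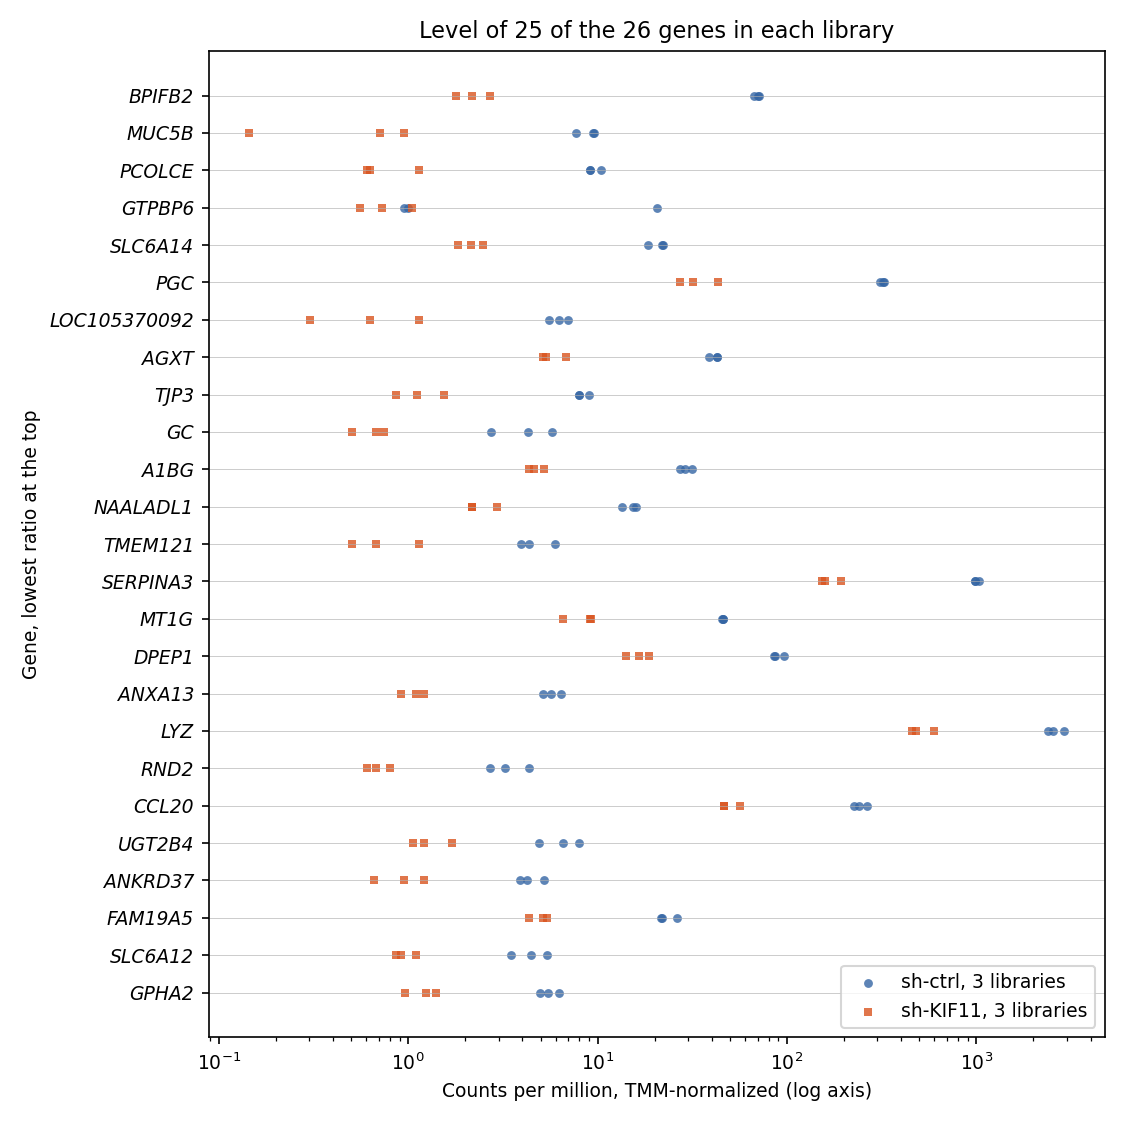
TMM-normalized CPM on a log axis for 25 of the 26 genes, ordered by ratio with the lowest at the top. Blue circles are the 3 sh-ctrl libraries and orange squares the 3 sh-KIF11 libraries. The groups are apart in every gene but GTPBP6, where 1 sh-ctrl library stands alone.

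The first group comprised proteins of mucosal and gastric secretion, of host defence and a chemokine. BPIFB2, which encodes a secreted protein of the lipid-binding BPI family (chr20:33007704-33023703, GRCh38.p14), had 1191, 1278 and 1183 counts against 54, 37 and 43. It went from 69.2 ± 2.15 to 2.22 ± 0.453 CPM (SD, n = 3) and had the lowest ratio of all. MUC5B, a gel-forming mucin of the airway (chr11:1223066-1262172), had 170, 170 and 130 counts against 19, 3 and 14. PGC, the zymogen progastricsin of the stomach (chr6:41736711-41747397), stood far higher, with 5728, 5898 and 5200 counts against 869, 661 and 534. Its mean went from 319 ± 9.58 to 34.1 ± 8.33 CPM.

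LYZ, lysozyme, which cleaves bacterial cell walls (chr12:69348381-69354234), was the most abundant of the 26 genes per length. Its FPKM, a count scaled to transcript length and library size, was 1681, 1796 and 1984 against 467, 374 and 362. In counts this was 42669, 45978 and 48935 against 11930, 9920 and 9049. Although its ratio of 0.225 was among the larger ones, LYZ alone made up 52.7% of the counts by which the 26 genes were lower. CCL20, a chemokine that attracts cells bearing CCR6 (chr2:227813842-227817556), had 4033, 4334 and 4456 counts against 1130, 966 and 914. Thus the 5 genes of this group ranged from 8.88 CPM (MUC5B) to 2612 CPM (LYZ) in sh-ctrl.

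The second group was made of plasma proteins of the liver. SERPINA3, alpha-1-antichymotrypsin, an acute-phase protease inhibitor (chr14:94612391-94624053), had 17490, 18684 and 16617 counts against 3873, 3150 and 3134. The mean went from 1000 ± 30.4 to 168 ± 21.9 CPM. A1BG, alpha-1-B glycoprotein of plasma (chr19:58345183-58353492), had 561, 520 and 460 counts against 105, 90 and 91. GC, the vitamin D binding protein (chr4:71741693-71805520), was weakly expressed, with 49, 77 and 97 counts against 15, 14 and 10. Of this group, the sh-ctrl libraries differed most among themselves in GC, whose interval of 0.121 to 0.247 ended just under the threshold.

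Other secreted proteins formed the next group. PCOLCE, which enhances the cleavage of procollagen C-propeptides, had 162, 188 and 154 counts against 23, 13 and 12, at a ratio of 0.0952. FAM19A5 (current symbol TAFA5), a small secreted protein of the TAFA family, had 387, 473 and 367 counts against 103, 90 and 106. GPHA2, a glycoprotein hormone alpha subunit, had 111, 99 and 84 counts against 25, 29 and 19. PCOLCE was thus far inside the threshold and the others near it.

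Enzymes and transporters came next. AGXT, the liver enzyme that detoxifies glyoxylate (chr2:240868824-240880500), had 764, 775 and 650 counts against 137, 111 and 102. DPEP1, a membrane dipeptidase, had 1715, 1535 and 1465 counts against 375, 343 and 277. UGT2B4, which conjugates bile acids and steroids with glucuronic acid, had 117, 89 and 134 counts against 34, 22 and 24. Its neighbour UGT2B7 had 513, 574 and 563 counts against 634, 704 and 777 and was not called (log2 fold change 0.16, edgeR adjusted p = 0.0742). UGT2B10, another relative, was called lower, at -0.45 (edgeR adjusted p = 6.26e-08), with 1112, 1118 and 1182 counts against 983, 962 and 913. NAALADL1, a peptidase related to the folate hydrolase family, had a ratio of 0.187. Reads of close relatives such as the UGT2B genes may be shared between them in counting.

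Of the transporters, SLC6A14, which takes up neutral and basic amino acids (chrX:116436606-116461458), had 328, 402 and 370 counts against 43, 38 and 49. Its mean went from 20.9 ± 2.15 to 2.15 ± 0.324 CPM. SLC6A12, the betaine and GABA transporter of the same family, had 79, 97 and 59 counts against 22, 19 and 17. MT1G, a metallothionein that binds zinc and copper, had 812, 830 and 778 counts against 183, 191 and 130. Of the 26 genes, the sh-ctrl libraries were closest together in MT1G, at 45.9 ± 0.302 CPM. Metallothionein genes are near copies of each other, and counts may be split among them.

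The remaining genes encode junction, membrane and signalling proteins, a hypoxia gene and 1 transcript without a named product. TJP3, a scaffold of tight junctions, had 142, 163 and 135 counts against 31, 23 and 17. ANXA13, an annexin of epithelial membranes, TMEM121, a membrane protein, and RND2, a small GTPase, had ratios of 0.215, 0.188 and 0.232, each on a sh-ctrl sum of at most 303 counts. ANKRD37, an ankyrin repeat protein induced by hypoxia, had 76, 70 and 88 counts against 19, 25 and 13. LOC105370092 had 112, 126 and 93 counts against 23, 13 and 6. All of these lay under 10 CPM in sh-ctrl.

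GTPBP6, which encodes a GTP-binding protein, rested on 1 library. It had 368, 18 and 16 counts against 21, 15 and 11, and without sh-ctrl library 1 its log2 fold change went from -3.27 to -0.32. GTPBP6 lies in the pseudoautosomal region shared by chromosomes X and Y, where reads can map to both copies. Other genes of that region, picked here after their values were seen, also varied within groups: CD99 had 94, 102 and 1874 counts in sh-ctrl, and ASMTL had 3, 56 and 61. Whether the counting of this region bears on GTPBP6 was not tested. Without that library 24 genes met the rule, 23 of them among the 26, since GPHA2 and RND2 also passed out of it.

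In GENCODE, 3 genes overlap a named protein-coding gene on the opposite strand, and how strand was set in counting is not given in the sources used here. ANKRD37 overlaps UFSP2, whose summed counts were 1276 and 1430 in the 2 groups. GPHA2 overlaps PPP2R5B, with 359 and 583, and NAALADL1 overlaps SAC3D1, with 3055 and 2116. The ratios of these partners were 1.12, 1.62 and 0.693. Whether reads of the opposite strand bear on the counts of the 3 genes was not tested. A1BG, FAM19A5, LYZ, MUC5B, PCOLCE and SLC6A12 overlap noncoding antisense transcripts, and SERPINA3 overlaps a coding model on its own strand, AL049839.2.

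Within the sh-KIF11 group the libraries did not stand level. Library 1 was the highest of the 3 in 20 of the 26 genes (76.9%) and the lowest in 0, while library 3 was the lowest in 18. In the 12 genes with at least 1000 summed sh-ctrl counts, library 1 was highest in 9. The same library was highest in 69.7% of 33 genes with a ratio over 0.25 to 0.33, in 39.4% of 4866 genes with a ratio over 0.8 to 1.2 and in 17.3% of the 52 genes with a ratio of at least 4. In those 52 genes it was the lowest in 59.6%. On the same scale KIF11 stood at 72.1, 71.4 and 62.8 CPM in libraries 1, 2 and 3. Libraries 1 and 2 were thus close for KIF11, and library 3 was lowest. In raw counts of KIF11 library 2 was the highest, at 1478 against 1448 in library 1. Whether the KIF11 level bears on the library order was not tested. By the shares above, both the 26 genes and the 52 most often lay on the side of sh-ctrl in library 1. Without this library 34 genes met the rule, among them all 26.

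**Figure D3:**
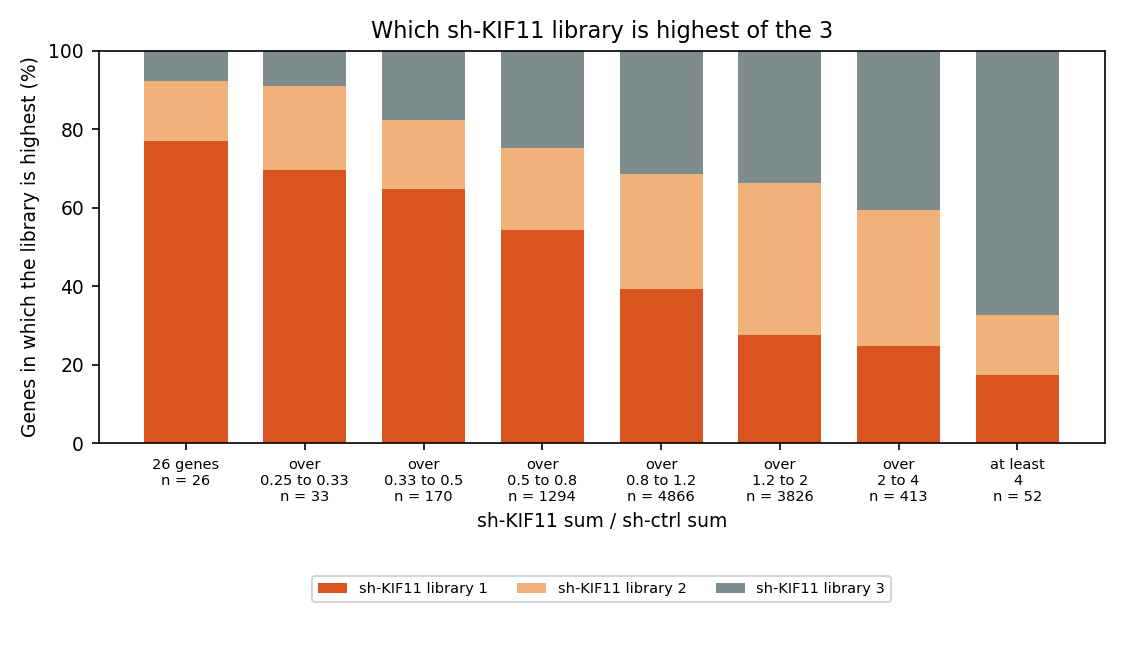
For genes grouped by their ratio of summed counts, the stacked bars give the percent of genes in which each sh-KIF11 library had the highest TMM-normalized CPM of the 3, and n is the number of genes. The share of library 1 falls from 76.9% in the 26 genes to 17.3% in genes with a ratio of at least 4.

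What the 26 genes had in common beyond their counts was sought in measures the rule did not use. Each is given as a share beside the 10683 genes with the same minimum, as a description; the 26 are fewer and on the whole less expressed than that background. By the Gene Ontology (GO) terms in the deposited table, 18 of the 26 genes carried an annotation. Of these, 8 (44.4%) were placed in the extracellular region or space, against 6.3% of 8876 annotated genes: BPIFB2, PCOLCE, PGC, GC, DPEP1, ANXA13, FAM19A5 and GPHA2. Equally 8 (44.4%, against 26.5%) had a term for membrane or plasma membrane, DPEP1, ANXA13 and FAM19A5 counting in both. The nucleus or nucleoplasm was named for 5 genes (27.8%), against 42% of the background. Apical plasma membrane was named for 3 genes, NAALADL1, DPEP1 and ANXA13 (16.7%, against 1.13%).

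The 8 genes without a term included MUC5B, A1BG, SERPINA3, LYZ and CCL20, all known to be secreted, and MT1G and UGT2B4. The start of the encoded protein was therefore read for 25 genes, translated from 1 coding transcript each, because secreted proteins begin with a hydrophobic signal peptide. In 14 of the 25 (56%) some window of 10 residues among the first 35 had a mean Kyte-Doolittle hydropathy of at least 2, against 16.5% of 10643 genes. UGT2B4 at 1.94 and DPEP1 at 1.97 missed this limit narrowly. Among the 14, NAALADL1 and TMEM121 are membrane proteins, and a hydrophobic start can also be a membrane anchor. The longest unbroken hydrophobic run in the first 35 residues had a median of 5 residues in the 25 genes and 3 in the background.

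Transcripts of the 25 genes had a median length of 1865 bases, against 3184 in the background, whereas the proteins differed less, at 422 and 468 residues. They reached from MT1G with 60 residues to MUC5B with 5761. Both sets had a median of 9 exons, while the 3' untranslated regions were shorter in the 25 genes, as given above.

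The start sites differed in base composition. Promoter sequences from RefSeq on GRCh38.p14, 250 bases before to 50 after the start site, matched 15 of the 26 genes and 8871 of the 10683. Among the other 11 were MUC5B, GC, NAALADL1, MT1G, ANXA13, LYZ, RND2, UGT2B4, SLC6A12 and GPHA2. The ratio of observed to chance CpG, low where CpG is depleted and near 1 in CpG islands, had a median of 0.413 in the 15 genes and 0.852 in the background. It lay under 0.6 in 12 of the 15 (80%) and in 14.6% of the background, the exceptions being GTPBP6, ANKRD37 and FAM19A5. Of the 12, DPEP1 and TMEM121 were read at a start site inside the RefSeq span of the gene. The outer end of that span was not read. Percent G and C differed less, at a median of 62 and 65.7.

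The 250 bases before the start of SLC6A14 (chrX:116436356-116436605, plus strand), the gene with the lowest CpG ratio at 0.172, are shown beside those of ANKRD37 (chr4:185396591-185396840, plus strand), at 0.825, with each CG in capitals.
SLC6A14: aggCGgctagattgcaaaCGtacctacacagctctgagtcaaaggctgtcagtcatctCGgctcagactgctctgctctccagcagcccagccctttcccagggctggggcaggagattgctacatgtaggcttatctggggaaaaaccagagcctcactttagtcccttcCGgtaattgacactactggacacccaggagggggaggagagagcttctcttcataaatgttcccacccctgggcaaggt
ANKRD37: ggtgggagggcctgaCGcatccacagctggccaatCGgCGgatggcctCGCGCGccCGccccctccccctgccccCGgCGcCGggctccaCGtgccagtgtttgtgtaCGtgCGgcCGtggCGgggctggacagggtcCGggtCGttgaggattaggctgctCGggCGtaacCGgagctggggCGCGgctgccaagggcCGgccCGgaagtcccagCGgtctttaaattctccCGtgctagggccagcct
SLC6A14 held 4 CpG in this stretch and ANKRD37 held 26.

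The letters TATAAA, the core of a TATA box, were found on either strand in 3 of the 15 promoters (20%), against 4.86% of the background: BPIFB2, PGC and CCL20. In each it lay at the usual distance from the start, beginning at position -30 in BPIFB2 (chr20:33007454-33007703, plus strand) and PGC (chr6:41747398-41747647, minus strand) and at -29 in CCL20 (chr2:227813592-227813841, plus strand). The 250 bases before the start are given with TATAAA in capitals.
BPIFB2: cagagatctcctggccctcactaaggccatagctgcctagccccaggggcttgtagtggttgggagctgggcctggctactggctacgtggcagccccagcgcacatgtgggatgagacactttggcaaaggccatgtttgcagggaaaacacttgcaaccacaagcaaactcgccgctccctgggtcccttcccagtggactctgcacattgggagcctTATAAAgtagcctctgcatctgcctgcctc
PGC: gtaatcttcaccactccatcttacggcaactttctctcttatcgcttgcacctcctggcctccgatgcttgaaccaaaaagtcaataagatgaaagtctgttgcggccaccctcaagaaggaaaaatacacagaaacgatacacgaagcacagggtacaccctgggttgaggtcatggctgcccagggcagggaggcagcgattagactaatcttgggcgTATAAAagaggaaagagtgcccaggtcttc
CCL20: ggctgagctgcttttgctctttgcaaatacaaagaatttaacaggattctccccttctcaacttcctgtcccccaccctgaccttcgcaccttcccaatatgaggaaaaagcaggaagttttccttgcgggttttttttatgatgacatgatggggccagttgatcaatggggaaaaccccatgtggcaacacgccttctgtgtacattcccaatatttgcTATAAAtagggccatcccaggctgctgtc
GGGCGG, the core of a GC box, was in 8 of the 15 (53.3%, background 71.9%). Other motifs were searched on both strands too. ACGTG or GCGTG, the core of a hypoxia response element, was in 10 (66.7%, background 64.7%), TGTTTAC or TGTTTGC, bound by FOXA factors, in 1, BPIFB2 (6.67%, background 4.67%), and TTTGAA, a cell cycle element, in 1, DPEP1 (6.67%, background 9.56%). CAAAGTCCA (HNF4), TTAATNATT (HNF1) and TTGCGCAA (C/EBP) were in 0 of the 15 and in 0.338%, 0.665% and 0.214% of the background. A match is a run of letters and was not shown to be a bound site.

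**Figure D4:**
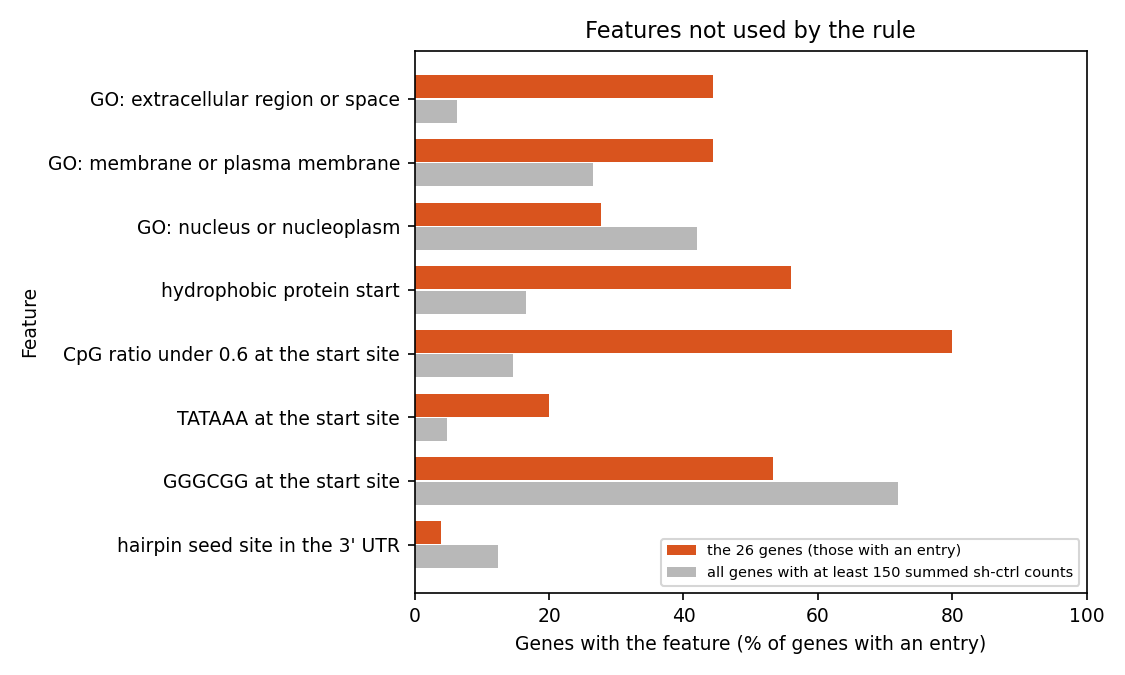
Percent of genes with each feature among the 26 genes (orange) and among all genes with at least 150 summed sh-ctrl counts (grey), each as a share of the genes with an entry: 18 of the 26 for GO terms, 25 for protein starts and seed sites, and 15 for start sites. The CpG ratio under 0.6 gives the widest gap, 80% against 14.6%.

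The 26 genes themselves were spread over the genome. They lay on 15 chromosomes, with at most 3 on any one, and a single pair, NAALADL1 and GPHA2 on chromosome 11, lay within 1 Mb, 107110 bases apart. Within 500 kb of the 26 there were 262 other genes with enough counts. Of these, 13 (4.96%) had a ratio of at most 0.5, against 2.17% of all 10683. The median log2 raw ratio of the neighbours was 0.007, against 0.155 in all 10683. The neighbours of SERPINA3 stood out, with a median log2 raw ratio of -0.82 over 8 genes, among them SERPINA1 and SERPINA11 of the same inhibitor family, at ratios of 0.385 and 0.275.

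To see where the 26 genes stand in the pathways they belong to, 12 lists of related genes were followed with edgeR's quasi-likelihood test over all 12369 genes passing a low-count filter, with Benjamini-Hochberg adjustment. At an adjusted p under 0.05 this called 4294 genes (34.7%) lower and 4254 (34.4%) higher. Scaled to library totals alone, the split was 2373 lower and 6621 higher, and the median of all genes moved from 0.00 to 0.24 on the log2 scale. The counts below leave out the 26 genes themselves but keep the genes left out by name. CA9 and NDUFA4L2 count in the hypoxia list, TF in the plasma protein list, and FABP1 in the lists of hepatocyte enzymes and PPAR-alpha targets. CA9, FABP1 and TF met the same rule, and NDUFA4L2 met its ratio. Their falls are therefore not independent of how the 26 genes were chosen. No source says that the libraries came from separate cultures, so these tests measure the spread between libraries, which may be technical.

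Plasma proteins secreted by the liver, the list that held SERPINA3, GC and A1BG, fell in 61 of 71 genes tested and rose in 3, with a median log2 fold change of -1.10. Cholesterol synthesis and SREBP2 targets fell in 23 of 24 and rose in 0 (median -0.86). Of these EBP, a sterol isomerase, was lowest, at 0.429 of its control level after scaling (edgeR adjusted p = 6.37e-22). Hypoxia-inducible genes, with ANKRD37, fell in 34 of 38 and rose in 3 (median -0.85). ANKRD37 at -2.23 was exceeded by NDUFA4L2 and CA9, both left out by name, at -3.87 and -3.75.

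Metallothioneins and zinc genes, with MT1G, fell in 5 of 6 and rose in 1 (median -1.06). MT1A, at 44, 46 and 39 counts against 5, 7 and 8, had a lower ratio than MT1G but too few counts for the rule. The single riser was SLC30A1, a zinc exporter, at 0.21. Hepatocyte enzymes and transporters, with AGXT and UGT2B4, were mixed: 28 of 51 fell and 10 rose (median -0.39). CYP1A2 rose by 3.08 and CYP1A1, another xenobiotic oxidase, by 2.61 (edgeR adjusted p = 1.25e-06 and 3.07e-17). CYP1A2 was near the floor, with 3, 3 and 1 counts against 18, 29 and 24. CYP1A1 had 41, 48 and 31 counts against 213, 280 and 345.

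Mucosal secretory genes, with BPIFB2 and MUC5B, went the other way: of 9 tested, 2 fell and 6 rose, with a median of 1.36. Those that fell were LCN2, an iron-siderophore binding protein, at -1.85, and FCGBP, a mucus protein, at -0.31, while MUC15 rose by 3.13 and AGR2, which helps fold mucins, by 1.84. MUC15 was near the floor in sh-ctrl, with 5, 4 and 4 counts against 48, 47 and 39. AGR2 had 28, 36 and 32 counts against 96, 152 and 146. The other 32 of the 41 listed genes were not among the genes tested. BPIFB2 and MUC5B were thus set apart from most of the list that could be followed.

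The lists that held none of the 26 genes varied. Liver transcription factors fell in 20 of 28 and rose in 4 (median -0.50). PPAR-alpha and fatty acid oxidation targets fell in 14 of 26 and rose in 7 (median -0.39). Mitotic genes fell in 35 of 45 and rose in 5 (median -0.53), with KIF11, the target of the hairpin, among the 35 at -0.75. The lowest, BIRC5, an inhibitor of apoptosis needed for cell division, went from 198 ± 10.3 to 99.2 ± 3.54 CPM. The p53 targets rose in 18 of 29 and fell in 4 (median 0.59). The ATF4 and amino acid stress genes fell in 13 of 26 and rose in 6 (median -0.24), and beta-catenin targets fell in 10 of 26 and rose in 9 (median -0.12). Scaled to library totals, the ATF4 list went to 10 lower and 11 higher and the beta-catenin list to 5 and 12, with a median of 0.11, while the medians of the other 11 lists kept their sign.

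**Figure D5:**
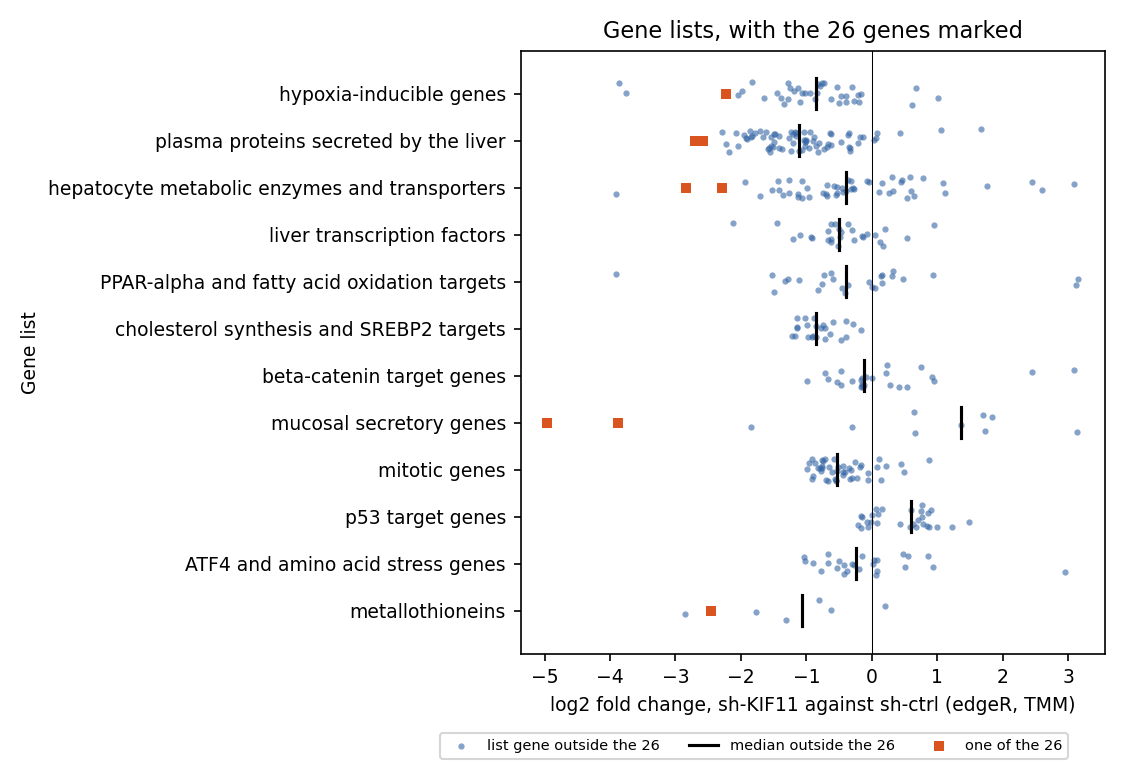
Log2 fold change, sh-KIF11 against sh-ctrl, of the tested genes of 12 lists. Blue points are list genes outside the 26, with CA9, FABP1, TF, NDUFA4L2 and the hairpin target KIF11 among them. Black bars are the median of the blue points, and orange squares are those of the 26 genes that are shown for a list. SERPINA3, GC, A1BG and ANKRD37 lie on the side to which most of their list went, whereas BPIFB2 and MUC5B lie opposite to the median of theirs, at 1.36.

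In all, 10 of the 26 genes belonged to one of the 12 lists and 16 did not. Markers of other cells were also measured. Of 16 markers of fibroblasts, endothelium and blood, DCN, THY1 and HBB had 0 counts in every library, and the summed level was 6.99 to 8.52 CPM in sh-ctrl and 6.71 to 7.72 in sh-KIF11. The summed level of 10 biliary and progenitor markers was 1564 to 1765 CPM in sh-ctrl and 1942 to 2107 in sh-KIF11, with SPP1 the most abundant. Of the 8 of these markers tested, 4 were called higher and 3 lower, so they went both ways. Their part in the decrease was not tested.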

How the data were processed

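RNA of HepG2 cells was isolated with a mirVana kit and sequenced as 150 bp paired reads. According to the submitters' processing notes, bcl2fastq 1.8.4, Trimmomatic, HISAT2 2.1.0, HTSeq 0.9.1, Cufflinks 2.2.1 and DESeq were used with build GRCh38. The authors deposited raw counts per gene, which were used as they stand, and the deposited FPKM values, which were scaled per length and depth by the authors.

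Genes were chosen by the ratio of summed raw counts, and the 26 genes, the 12 lists and the marker lists were set with earlier results of these data known. Tests across all genes used edgeR 4.0.16 (quasi-likelihood, TMM, default low-count filter) in R 4.3.3, tried on simulated data. DESeq2 1.42.0, and limma 3.58.1 on log2(FPKM + 1) and log2(FPKM + 0.1), were alternatives. The rule was to name each of the 26 genes, of which 1 is not reported here by name. Apart from that gene, counts per library were given for the 12 lowest ratios, the 12 highest levels, list genes and the 3 nearest the threshold. Of other list genes, up to 2 called genes at each end could be named. Intervals of ratios are exact binomial (95%). Positions are RefSeq GRCh38.p14, matched by GeneID for 19741 of 20030 genes, and coding sequences are GENCODE 29. The hairpin sequence is from the study's oligo list.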

Additional observations from a re-analysis of the deposited data

How the results depend on the processing

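The number of genes meeting the rule moved with its own limits. At a ratio of at most 0.2 it was 15, at most 0.33 it was 59, and with a minimum of 500 summed sh-ctrl counts it was 14, each by construction. It was 39 with TMM-scaled CPM, RLE size factors or a minimum of 50 counts, 23 with library totals and 26 with FPKM means, 24 of them shared. With each library left out in turn it ranged from 24 to 34.

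Genes called lower over all tested numbered 4294. They fell to 2373 with library totals alone, to 2596 with limma on log2(FPKM + 1) and to 2597 with limma on log2(FPKM + 0.1), settings in which the median of all genes lay at 0.24, 0.12 and 0.17 (log2); the cause was not tested further. With each library left out the number ranged from 4002 to 4321. List genes outside the 26 called lower numbered 243 of 368 tested. CA9, FABP1, TF and NDUFA4L2 are among the 243, as is KIF11, the target of the hairpin. The number ranged from 206 to 251 over all alternatives that kept every library. With each library left out it ranged from 235 to 242. With the replicate block, that is, the replicate number as a term, 4311 genes and 244 list genes were called lower. The numbers do not pair the libraries: the deviations of same-numbered libraries correlated at 0.04, -0.03 and 0.01. The log2 fold changes were also followed for the 22 genes that the naming rule set for counts, 1 of them the gene not reported here. They were negative in all 328 alternative values, 6 of which were above -1. As these genes were chosen for low sh-KIF11 counts in the same libraries, nothing was read from the sign.

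Low counts limit 12 of the 26 genes, which had sh-ctrl sums under 500, and GTPBP6 depends on 1 library.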

Other observations

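With the minimum lowered to 50 summed sh-ctrl counts, 13 further genes met the ratio, among them C8B and ITIH4, which encode plasma proteins, and the caveolae genes CAV1 and CAV2.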
